A study of Homo sapiens with 36 samples.

Results

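The comparison set the 3 MEC1 libraries treated with 5 µM ibrutinib for 48 h against the 3 MEC1 libraries that received the DMSO vehicle for the same 48 h. These 6 libraries, of 36 in the whole series, were taken by the treatment, dose and time in their titles. MEC1 is an established B-cell line derived from chronic lymphocytic leukaemia (CLL), and ibrutinib is a covalent inhibitor of Bruton tyrosine kinase (BTK). The question was which functions rise and fall across all expressed genes after 48 h with ibrutinib. The libraries do not measure BTK activity or cell viability. The series also holds the B-cell lines JVM2 and EHEB, exposed to the same dose for 72 h and 96 h, and libraries treated with fludarabine and with the PI3Kδ inhibitor idelalisib. The 3 idelalisib (10 µM) and 3 fludarabine (50 µM) libraries of MEC1 entered the fit to estimate the spread. A single line stands for the disease, and the labels do not state whether the libraries of a group came from separate cultures. All p-values therefore measure the spread between libraries, which may be technical.

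As background, the B-cell receptor (BCR) passes its signal from the paired chains CD79A and CD79B through the kinases LYN and SYK to BTK. BTK activates phospholipase PLCG2, and the calcium and diacylglycerol that follow drive the ERK, NF-kB and NFAT branches. PI3K is recruited beside this route and keeps FOXO transcription factors out of the nucleus. In CLL these branches maintain survival, chemokine secretion, metabolism and division, and ibrutinib blocks BTK by binding a cysteine that a small set of other kinases shares.

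The libraries were deep, at 37077174 to 46425576 assigned counts with DMSO and 41648137 to 49169738 with ibrutinib. All 8 B-cell markers were above 1 CPM (counts scaled to a common library total), with summed levels of 2384 to 2561 normalised CPM with DMSO and 3395 to 3568 with ibrutinib. Markers of monocytes and granulocytes summed to below 1 CPM in every library, and those of erythroid cells likewise. CD3D was at 0 throughout, and the T-cell sum of 37.02 to 42.8 CPM with DMSO and 16.9 to 17.8 with ibrutinib was almost wholly TRAC. The epithelial sum moved from 24.8 to 29.6 up to 49.7 to 82.1 CPM through CDH1, with KRT19 at 0. The NK-cell sum was 57.6 to 67.8 CPM with DMSO and 52.9 to 55.8 with ibrutinib, and the fibroblast sum 5.58 to 7.76 and 6.05 to 7.70. The part of these markers in the results was not tested. The share of counts from mitochondrial genes was 0.396% to 0.608% with DMSO and 0.682% to 0.862% with ibrutinib.

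The libraries carry numbers, MEC1_37 to MEC1_39 for DMSO, MEC1_184 to MEC1_186 for ibrutinib and MEC1_190 to MEC1_192 for idelalisib. No DMSO library of MEC1 carries a number near those of the ibrutinib libraries, so the effect of the drug and a difference between the 2 sets of library numbers cannot be told apart. On the first principal component of the 12 MEC1 libraries the ibrutinib libraries lay at 23.5 to 29.0, the idelalisib libraries at 26.0 to 27.3 and the DMSO libraries at -5.81 to -4.19. The median log2 fold change also fell with the GC content of the genes, from 0.25 in the eighth of genes with the lowest GC content to -0.27 in the eighth with the highest. The part of GC content in the results was not tested beyond a fit with GC offsets, whose values stand beside some of the lists. Lists printed without such a value could move too. With GC offsets, DNA damage and repair genes went from 15 to 19 lower, and class I and peptide loading genes from 6 to 9 higher. B-cell transcription factors went from 12 higher and 7 lower to 9 and 8.

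**Figure D1:**
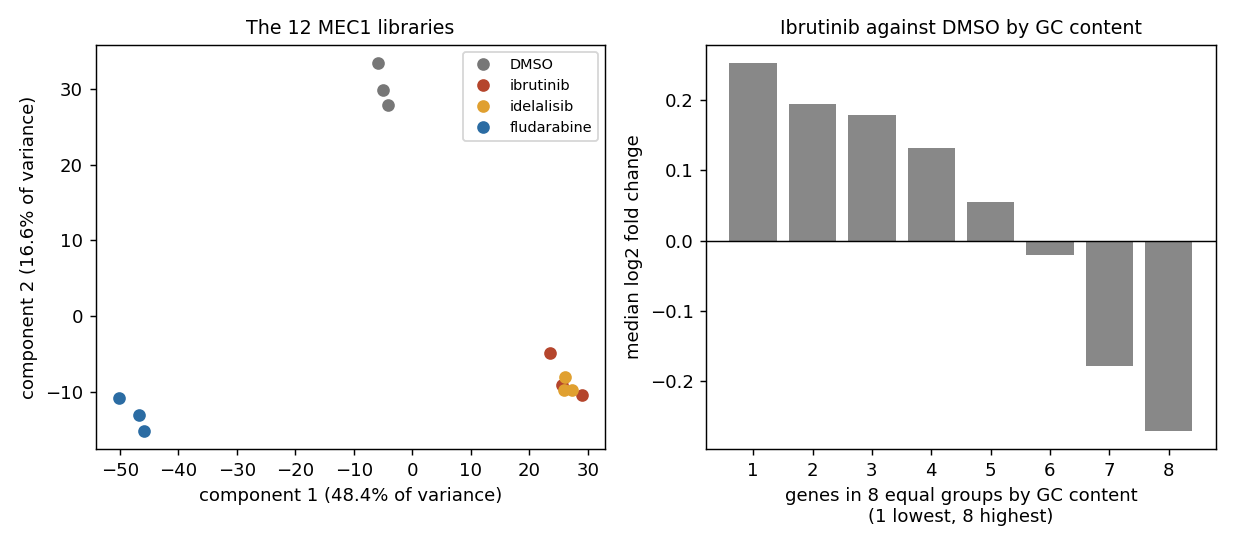
Left, the 12 MEC1 libraries on the first 2 principal components of log2 CPM of the 500 most variable genes, each point a library. Right, the median log2 fold change of ibrutinib against DMSO in 8 equal groups of genes ordered by GC content. Ibrutinib and idelalisib libraries lie together, and the bars fall from 0.25 to -0.27.

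Of 17516 genes tested, 47.6% passed an adjusted p of 0.05, with 23.7% higher and 23.9% lower with ibrutinib, so a count in a list must be read against these shares. The median log2 fold change of all genes was 0.06, and it fell with expression, from 0.82 in the eighth of genes with the lowest average CPM to -0.16 in the eighth with the highest. The shares called depended on expression too. In the lowest eighth 13.7% were higher and 2.1% lower, and in the highest eighth 21.2% and 42.6%. The lists were not matched for expression, so a share lower near 42.6% in a list of highly expressed genes does not set that list apart. Over all genes tested 1667 rose and 909 fell by at least 1 on the log2 scale, whereas of the genes whose average log2 CPM was 3 or more 372 rose and 500 fell by as much. The functional lists separated widely around this background, as the plot of lists shows. Genes of the amino acid response, early response transcription factors, ERK feedback, DNA replication and PI3K feedback had the lowest medians. Interferon-stimulated genes, immunoglobulin constant genes and mitochondrially encoded subunits had the highest.

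BTK itself did not pass the test. Its normalised CPM was 84.5, 94.8 and 67.6 with DMSO and 94, 100.2 and 83.9 with ibrutinib (log2 fold change 0.17, SE 0.15, adjusted p = 0.37), and the groups overlapped. Of 10 kinases with the cysteine that ibrutinib binds, 7 were tested, 2 rose and 2 fell. BLK, a B-cell SRC-family kinase, rose from 172, 173 and 179 to 352, 319 and 341 CPM (log2 fold change 0.95, SE 0.06, adjusted p = 7.0e-07). TEC, the founding member of the BTK family, fell from 54.4, 48 and 54 to 27.1, 32.5 and 28.1 CPM (log2 fold change -0.84, SE 0.09, adjusted p = 2.7e-05). TXK, another TEC-family kinase, was at 0.486, 0.264 and 0.141 CPM with DMSO and 0.48, 1.21 and 0.696 with ibrutinib (log2 fold change 1.40, SE 0.47, adjusted p = 0.029), and JAK3, the kinase of common gamma chain cytokine receptors, at 135.1, 141 and 114 CPM with DMSO and 117, 96.2 and 95 with ibrutinib (log2 fold change -0.34, SE 0.10, adjusted p = 0.015). Both overlapped between the groups. The TXK call was lost without MEC1_38, MEC1_39 or MEC1_185, with log2 fold changes of 0.96 to 1.93 over the 14 alternatives that tested it (lost too with only the 2 groups fitted), and the JAK3 call without MEC1_38, MEC1_185 or MEC1_186, with log2 fold changes of -0.46 to -0.12 over the 15 alternatives that tested it (lost too with library sizes alone or GC offsets).

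Within B-cell receptor signalling, 14 of 34 tested genes rose and 10 fell. Both signalling chains of the receptor were among the rises. CD79B, a signalling chain of the BCR, was at 70.4, 73 and 69 CPM with DMSO and 178, 174 and 176 with ibrutinib (log2 fold change 1.31, SE 0.10, adjusted p = 1.2e-06). CD79A, its partner, went from 127, 128 and 119 to 295, 272 and 287.6 CPM (log2 fold change 1.19, SE 0.06, adjusted p = 7.8e-08). CR2, the complement receptor of B cells, rose from 306, 325 and 304 to 674, 655 and 656 CPM (log2 fold change 1.09, SE 0.05, adjusted p = 5.1e-08). No library of one group reached the other group for these 3 genes.

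Several genes downstream of the receptor fell. PLCG2, the phospholipase that BTK activates, fell from 346, 339 and 321 to 220.0, 206 and 215 CPM (log2 fold change -0.65, SE 0.05, adjusted p = 1.5e-06). The adaptor GRB2 fell by 0.72 (SE 0.07), and the exchange factors VAV3 and VAV2 were at -0.997 (SE 0.19) and -0.61 (SE 0.17) on the log2 scale, both called lower. RASGRP3, a RAS exchange factor, rose by 0.83 (SE 0.06), while its relative RASGRP1 fell by 0.60 (SE 0.17). The VAV2 call was lost without MEC1_186, with log2 fold changes of -0.77 to -0.39 over the 15 alternatives that tested it (lost too with GC offsets), and the RASGRP1 call without MEC1_38, with log2 fold changes of -0.76 to -0.46 over the 15 alternatives that tested it. Of the proximal kinases, SYK stood at 0.17 (SE 0.06) and LYN at -0.15 (SE 0.05). The SYK call was lost without any 1 of the DMSO libraries, MEC1_184 or MEC1_186, with log2 fold changes of 0.11 to 0.25 over the 15 alternatives that tested it (lost too with DESeq2 size factors, no filter or only the 2 groups fitted), and the LYN call without MEC1_37, MEC1_38 or MEC1_185, with log2 fold changes of -0.31 to -0.06 over the 15 alternatives that tested it (lost too with library sizes alone, a stricter filter or only the 2 groups fitted). The adaptor BLNK (log2 fold change 0.23, SE 0.11, adjusted p = 0.11) and the kinase subunit PIK3CD (log2 fold change 0.27, SE 0.11, adjusted p = 0.061) did not pass. The list median was 0.17, and 0.04 with GC offsets.

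**Figure D2:**
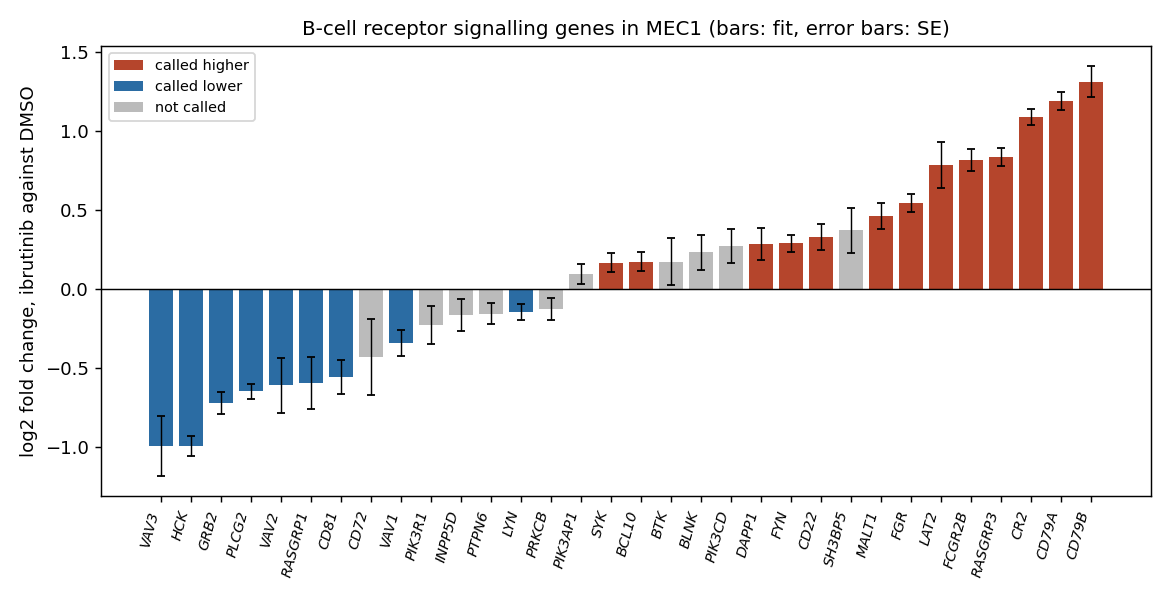
Log2 fold change of ibrutinib against DMSO for 32 of the 34 B-cell receptor signalling genes tested, with the SE derived from the test as error bars. Red bars passed the test as higher, blue bars as lower and grey bars did not pass. CD79B, CD79A and CR2 stand above 1, and VAV3 is lowest at -0.997.

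Early response transcription factors are switched on within minutes of receptor signalling, largely through serum response factor (SRF) and ERK. Of 21 tested, 15 fell and 0 rose by the main edgeR fit, DESeq2 or limma-voom (1 at an unadjusted p under 0.05), with a median log2 fold change of -1.24 (-1.19 with GC offsets). With GC offsets 14 fell and 1 rose. EGR1, a zinc finger factor induced by ERK, was at 7.3, 6.15 and 8 CPM with DMSO and 0.76, 0 and 0.653 with ibrutinib (log2 fold change -3.89, SE 0.61, adjusted p = 0.00033). EGR2 went from 7.71, 7.05 and 5.44 to 0.88, 0.5 and 0.479 CPM (log2 fold change -3.43, SE 0.44, adjusted p = 7.8e-05). Both were nearly absent after ibrutinib, with EGR1 at 0 in a library.

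The AP-1 genes were lower as well. FOS fell from 1.82, 1.17 and 1.3 to 0.24, 0 and 0.087 CPM (log2 fold change -3.62, SE 0.98, adjusted p = 0.01), and ATF3, a stress-induced relative, from 28.6, 14.9 and 30.2 to 3.72, 1.14 and 6.51 (log2 fold change -2.69, SE 0.49, adjusted p = 0.00084). JUN fell by 1.58 (SE 0.10) and FOSL2 by 1.94 (SE 0.11) on the log2 scale. NR4A1, an orphan nuclear receptor that reports BCR strength in B cells, fell from 3.26, 7.03 and 5.75 to 2.26, 2.09 and 2.44 CPM (log2 fold change -1.24, SE 0.24, adjusted p = 0.0014). IER2 (log2 fold change 0.02, SE 0.49), IER3 (log2 fold change 0.04, SE 0.10) and KLF10 (log2 fold change 0.15, SE 0.06) did not pass, and NR4A3, FOSL1 and IER5 did not pass either.

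Promoter sequences are given to describe members of this list. Here and in the motif searches below, the lists were named for functions tied to the factor. A share above that of all genes may therefore follow from the choice of members, whatever these libraries show. The windows lie upstream of the annotated start in RefSeq on GRCh38.p14 and read 5′ to 3′ along the gene, with capitals marking the CArG box, the element that SRF binds. A CArG box lay within 250 bases before to 50 bases after the start in 3 of 16 members with a sequence (18.8%), counting both strands, against 1.54% of 12008 tested genes. The windows of EGR1 (chr5:138465344-138465435, plus strand) and EGR2 (chr10:62816398-62816467, minus strand) hold 2 and 1 of them.
EGR1: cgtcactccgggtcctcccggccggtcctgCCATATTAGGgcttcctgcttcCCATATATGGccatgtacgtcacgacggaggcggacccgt
EGR2: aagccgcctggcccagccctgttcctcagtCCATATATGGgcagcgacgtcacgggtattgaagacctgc
A match is a description of letters and not of binding.

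ERK feedback genes restrain the pathway that induces them, and 10 of 15 fell while 2 rose (median -0.88, and -1.08 with GC offsets). DUSP4, a phosphatase of nuclear ERK, fell from 22.1, 20.8 and 23.3 to 2.64, 1.38 and 1.89 CPM (log2 fold change -3.47, SE 0.18, adjusted p = 1.3e-07). ETV5, an ERK-induced ETS factor, fell from 44.1, 49.3 and 43.3 to 10.3, 8.69 and 11.3 CPM (log2 fold change -2.17, SE 0.10, adjusted p = 7.2e-08). DUSP6, the phosphatase of cytoplasmic ERK, fell from 1.7, 1.63 and 1.49 to 0.46, 0.619 and 0.305 CPM (log2 fold change -1.80, SE 0.32, adjusted p = 0.00079), and SPRY4, a Sprouty inhibitor, from 2.31, 2.07 and 1.58 to 0.22, 0.476 and 0.392 (log2 fold change -2.46, SE 0.32, adjusted p = 8.4e-05). None of these 4 genes overlapped between groups. PHLDA2 fell as well (0.438, 0.529 and 0.31 CPM against 0.1, 0 and 0). The 2 that rose were DUSP5 (log2 fold change 0.18, SE 0.06) and DUSP2 (log2 fold change 0.19, SE 0.06), and the DUSP5 call was lost without MEC1_37, MEC1_38, MEC1_184 or MEC1_186, with log2 fold changes of 0.13 to 0.26 over the 15 alternatives that tested it (lost too with no filter). The DUSP2 call was lost without MEC1_37, MEC1_38 or MEC1_184, with log2 fold changes of 0.12 to 0.49 over the 15 alternatives that tested it (lost too with no filter).

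The amino acid response is the programme that ATF4 turns on when amino acids are short or translation initiation is restrained, and it supplies amino acid synthesis, transport and stress regulators. It was the list with the lowest median, -1.26 (-1.25 with GC offsets), and 26 of 30 tested members fell while 1 rose. ATF4 itself fell from 408 to 241 mean CPM (log2 fold change -0.76, SE 0.07, adjusted p = 6.7e-06). CTH, the enzyme that makes cysteine from cystathionine, fell from 43.1, 50.4 and 40.8 to 8.42, 8.83 and 9.12 CPM (log2 fold change -2.35, SE 0.10, adjusted p = 3.3e-08). PHGDH, the entry enzyme of serine synthesis, fell from 45.9, 41.7 and 45.7 to 9.2, 8.38 and 9.4 CPM (log2 fold change -2.30, SE 0.10, adjusted p = 3.5e-08). ASNS, asparagine synthetase, went from 134.3, 145 and 132.6 to 37.9, 40.0 and 44.7 CPM (log2 fold change -1.75, SE 0.12, adjusted p = 1.0e-06). The ibrutinib libraries lay below the DMSO libraries for each of them.

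Regulators within the list moved alongside the enzymes. SESN2, which senses leucine, fell from 66, 64.7 and 60.7 to 15.3, 11.9 and 13.2 CPM (log2 fold change -2.24, SE 0.10, adjusted p = 3.6e-08), TRIB3, a pseudokinase, from 99.2, 97.8 and 109 to 32.6, 27 and 38.8 (log2 fold change -1.64, SE 0.11, adjusted p = 7.3e-07), and CHAC1, which degrades glutathione, from 13.8, 10.3 and 10.0 to 2.84, 2.02 and 2.94 (log2 fold change -2.13, SE 0.19, adjusted p = 4.5e-06). The transporters SLC1A5 (log2 fold change -1.61, SE 0.06) and SLC7A5 (log2 fold change -1.37, SE 0.09) and the death-associated factor DDIT3 (log2 fold change -1.91, SE 0.27) fell too. PSPH, the last enzyme of serine synthesis, was the exception at 0.48 (SE 0.09). Among aminoacyl-tRNA synthetases, which charge tRNAs, 12 of 20 fell and 3 rose (median -0.44). YARS fell from 165, 173 and 177 to 72.7, 55.2 and 70.7 CPM (log2 fold change -1.37, SE 0.09, adjusted p = 7.3e-07) and GARS by 1.22 (SE 0.07), while FARSB stood at 0.39 (SE 0.06).

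The amino acid response element, searched as TGATGNAA on both strands, lay in 7 of 25 members with a promoter sequence (28.0%), against 2.91% of tested genes. The median log2 fold change was -1.42 in the members with a match and -1.17 in those without. The window of ASNS (chr7:97872439-97872506, minus strand) is shown with the match in capitals because this gene defines the response.
ASNS: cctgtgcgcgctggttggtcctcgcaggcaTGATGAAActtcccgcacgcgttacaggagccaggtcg

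DNA replication genes fell broadly, with 37 of 48 lower and 2 higher (median -0.62, and -0.67 with GC offsets). CDT1, which loads the MCM helicase at origins, fell from 375, 368 and 356 to 89.2, 75.2 and 83.5 CPM (log2 fold change -2.15, SE 0.07, adjusted p = 7.6e-09). E2F1, the activator of S-phase genes, fell from 110.3, 107 and 107 to 43, 36.1 and 45.5 CPM (log2 fold change -1.38, SE 0.08, adjusted p = 2.4e-07). The helicase subunit MCM2 went from 414, 375 and 402 to 179.9, 130.2 and 193 CPM (log2 fold change -1.24, SE 0.12, adjusted p = 7.1e-06) and MCM5 from 280.4, 265 and 259 to 174, 149.8 and 172 (log2 fold change -0.70, SE 0.06, adjusted p = 6.5e-06), as did the other 4 tested subunits of the MCM2 to MCM7 ring, at -0.66 to -0.80. TK1, thymidine kinase, fell from 170.0, 171 and 199 to 96.7, 86.2 and 81.2 CPM (log2 fold change -1.03, SE 0.10, adjusted p = 7.9e-06). RRM2 did not pass (log2 fold change -0.80, SE 0.35, adjusted p = 0.08), with a DMSO library, MEC1_38, at 169 CPM beside 361 and 367. It passed as lower without MEC1_38 (-1.09), without MEC1_186 (-1.18) and with GC offsets (-0.96).

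The E2F site, searched as TTTNGCGC on both strands, lay in 17 of 39 members with a promoter sequence (43.6%), against 3.39% of tested genes, and the median log2 fold change was -0.74 with and -0.62 without a match. The windows of CDT1 (chr16:88803546-88803613, plus strand) and E2F1 (chr20:33686386-33686435, minus strand) are shown as the members with the largest falls, with the matches in capitals.
CDT1: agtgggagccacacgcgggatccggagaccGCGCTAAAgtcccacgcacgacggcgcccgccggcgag
E2F1: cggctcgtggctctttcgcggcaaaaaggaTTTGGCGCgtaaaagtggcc

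Mitosis genes were lower but less uniformly, with 29 of 44 lower and 3 higher (median -0.39), and with GC offsets 32 lower and 0 higher. MKI67, the proliferation antigen, fell from 839, 919 and 789 to 405, 343 and 330.1 CPM (log2 fold change -1.24, SE 0.11, adjusted p = 3.8e-06), and KIF2C, a spindle kinesin, from 193, 198 and 197 to 85, 75.1 and 91.7 (log2 fold change -1.22, SE 0.07, adjusted p = 2.5e-07). CDK1, the mitotic kinase, fell from 195, 203 and 208 to 125, 128 and 134.7 CPM (log2 fold change -0.64, SE 0.06, adjusted p = 1.1e-05). CCNB1, its cyclin, was higher, at 77.6, 74.7 and 79.5 against 92.8, 102 and 110.4 CPM (log2 fold change 0.40, SE 0.08, adjusted p = 0.0014), a call lost with GC offsets (log2 fold change 0.20). FOXM1 (log2 fold change -0.14, SE 0.39), CDC20 (log2 fold change -0.14, SE 0.09) and BUB1 (log2 fold change -0.01, SE 0.06) did not pass, and BUB1 passed as lower with GC offsets.

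Several cell-cycle inhibitors fell as well. Among cyclins and CDK inhibitors 10 of 17 fell and 3 rose. CDKN1A, the p21 inhibitor, fell from 113, 112 and 115 to 53.7, 46.4 and 53.9 CPM (log2 fold change -1.14, SE 0.08, adjusted p = 8.2e-07), and CDKN1B, the p27 inhibitor, from 82.7, 87.3 and 85.7 to 51.9, 50.6 and 51.8 (log2 fold change -0.73, SE 0.05, adjusted p = 9.4e-07). CDKN2D fell from 21.8, 23.2 and 23.6 to 2.48, 8 and 9.77 CPM (log2 fold change -1.76, SE 0.48, adjusted p = 0.011), with an ibrutinib library well below the others of its group. RB1, the brake on E2F factors, rose (log2 fold change 0.84, SE 0.13).

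DNA damage and repair genes divided. Of 33 tested, 15 fell and 6 rose (median -0.20). RAD54L and CLSPN, used in homologous recombination and the replication checkpoint, fell, at -1.298 (SE 0.09) and -1.02 (SE 0.07). The large signalling kinases ATM (log2 fold change 0.59, SE 0.12) and ATR (log2 fold change 0.66, SE 0.06) and the break sensor NBN (log2 fold change 0.94, SE 0.11) rose. Replication-dependent histone genes, whose transcripts normally track S phase, went against the replication list, with 36 of 56 higher and 2 lower (median 0.35, and 0.50 with GC offsets). HIST1H4F rose from 26.4, 21.4 and 23.8 to 43.6, 44.5 and 48.8 CPM (log2 fold change 0.94, SE 0.11, adjusted p = 3.5e-05). Histone genes are close copies of one another, so reads may be divided among them.

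PI3K inhibition is known to release FOXO factors and raise their targets. In this list 21 of 34 tested genes fell and 3 rose (median -0.62, and -0.74 with GC offsets). The MEC1 libraries given the PI3Kδ inhibitor idelalisib were near the ibrutinib libraries here. Set directly against them, 1 of the 34 genes was higher and 3 were lower with ibrutinib (median -0.10). IRS2, an insulin receptor substrate that FOXO raises, fell from 18, 21.2 and 16.9 to 5.3, 5.69 and 5.85 CPM (log2 fold change -1.73, SE 0.10, adjusted p = 3.0e-07). With idelalisib IRS2 was at 7.08, 7.28 and 7.05 CPM. TXNIP, a brake on glucose uptake, fell from 263, 273 and 266 to 148, 126 and 143.6 CPM (log2 fold change -0.94, SE 0.08, adjusted p = 2.6e-06), and FOXO1 by 0.84 (SE 0.06). IL7R fell from 3.02, 6.55 and 7.61 to 1.28, 0.571 and 1.7 CPM (log2 fold change -2.26, SE 0.58, adjusted p = 0.0075). KLF2, which maintains quiescence and homing, was the clear exception, rising from 5.74, 6.35 and 5.02 to 18.6, 17 and 17.4 CPM (log2 fold change 1.63, SE 0.13, adjusted p = 2.4e-06). PIK3IP1, an inhibitor of PI3K, did not pass (25.5, 25.3 and 24.8 CPM against 21.1, 30.7 and 21.7, log2 fold change -0.04, SE 0.20, adjusted p = 0.89).

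Lipid synthesis was lower at selected steps. Of 17 fatty acid genes, 11 fell and 1 rose (median -0.38). FASN, fatty acid synthase, fell from 778, 750.0 and 757 to 322, 286.7 and 339 CPM (log2 fold change -1.27, SE 0.09, adjusted p = 7.0e-07), and LPIN1, which makes diacylglycerol, from 78.4, 81.6 and 74.8 to 21.7, 18.4 and 19.3 (log2 fold change -1.98, SE 0.09, adjusted p = 5.7e-08). SCD, the stearoyl-CoA desaturase, fell from 2000.1, 2070.4 and 1807 to 1221, 1077 and 1313 CPM (log2 fold change -0.70, SE 0.08, adjusted p = 2.1e-05), while ACACA did not pass (log2 fold change -0.07, SE 0.05). Of 26 cholesterol genes 11 fell and 1 rose (median -0.21). With library sizes alone 7 fell and 4 rose, and with a stricter filter 10 fell and 6 rose. MVD, the mevalonate decarboxylase, fell by 0.93 (SE 0.06), whereas INSIG1 stood at 0.14 (SE 0.08). Of 10 sterol efflux genes 4 fell and 2 rose. The exporters ABCG1 and ABCA1 went in opposite directions, at -2.16 (SE 0.13) and 0.89 (SE 0.10).

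Glycolysis genes fell in 12 of 23 cases and rose in 1 (median -0.34). HK2, hexokinase 2, fell from 376, 400.2 and 388 to 204, 180.4 and 205 CPM (log2 fold change -0.98, SE 0.07, adjusted p = 7.9e-07), SLC2A3, a glucose transporter, from 80.0, 84.4 and 80.6 to 29.6, 28.2 and 29.7 (log2 fold change -1.49, SE 0.05, adjusted p = 1.9e-08), and ENO2 from 349.5, 415 and 434 to 79.6, 125 and 76.2 (log2 fold change -2.09, SE 0.28, adjusted p = 9.8e-05). LDHA, lactate dehydrogenase, was higher at 0.56 (SE 0.15), a call lost with GC offsets (log2 fold change 0.41). Of 18 nucleotide synthesis genes 7 rose and 5 fell, with NME1 at 1.18 (SE 0.14) and IMPDH2 at -0.74 (SE 0.07).

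Endoplasmic reticulum (ER) folding genes were lower in 22 of 32 cases and higher in 2 (median -0.36). HSPA5, the main ER chaperone, fell from 1505, 1506 and 1512 to 1032, 912 and 1017 CPM (log2 fold change -0.61, SE 0.06, adjusted p = 5.3e-06). HERPUD1, used in ER-associated degradation, fell from 105, 113 and 93.9 to 55.6, 64.2 and 61.8 CPM (log2 fold change -0.78, SE 0.10, adjusted p = 9.6e-05). XBP1, the transcription factor of the pathway, did not pass at 0.34 (SE 0.20). Autophagy genes fell in 15 of 29 cases and rose in 5, with the initiating kinase ULK1 at -0.88 (SE 0.08), the cargo receptor SQSTM1 at -0.69 (SE 0.07) and TFEB at 0.40 (SE 0.06). Lysosomal genes were mixed, 17 lower and 11 higher of 41. The cathepsin CTSH rose (log2 fold change 1.10, SE 0.12), and the glucosidase GAA fell (log2 fold change -1.27, SE 0.09).

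Interferon-stimulated genes, antiviral effectors induced through factors that include STAT2 and IRF9, had the highest median of the lists. Of 45 tested, 34 rose and 2 fell, with a median log2 fold change of 1.03 (0.84 with GC offsets). IFIT1, which binds foreign RNA caps, rose from 3.45, 3.31 and 2.99 to 33.3, 31.7 and 38.3 CPM (log2 fold change 3.40, SE 0.14, adjusted p = 3.6e-08). RSAD2, the antiviral enzyme viperin, went from 2.55, 2.12 and 1.94 to 16.1, 14 and 16.9 CPM (log2 fold change 2.83, SE 0.14, adjusted p = 7.8e-08), and SAMD9L, a restriction factor, from 74.2, 49 and 54.9 to 250.9, 237 and 259.8 (log2 fold change 2.07, SE 0.14, adjusted p = 7.3e-07). The groups were well separated for these genes.

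Also among the effectors, MX1, a dynamin-like restriction factor, rose from 372, 354 and 351 to 717, 577 and 679 CPM (log2 fold change 0.87, SE 0.07, adjusted p = 3.0e-06). Of the inducing factors, IRF7 rose (log2 fold change 0.48, SE 0.09), and STAT2 (log2 fold change -0.18, SE 0.08) and IRF9 (log2 fold change 0.57, SE 0.27) did not pass. The synthetases OAS1 (log2 fold change -0.02, SE 0.07) and OAS2 (log2 fold change 0.33, SE 0.14) did not pass, and OAS3 and IFITM2 fell, by 0.55 (SE 0.08) and 0.66 (SE 0.11). The chemokine targets CXCL10 (log2 fold change -0.38, SE 0.16) and CXCL9 (log2 fold change -0.74, SE 0.43) did not pass either, and CXCL11 was at 0.195, 0.441 and 0.169 CPM with DMSO and 0 in the 3 ibrutinib libraries.

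The interferon-stimulated response element, searched as GAAANNGAA on both strands, lay in 27 of 36 members with a promoter sequence (75%), against 9.29% of tested genes. The median log2 fold change was 1.34 in members with a match and 1.29 in those without. The window of IFIT1 (chr10:89392478-89392559, plus strand) holds 2 matches on the minus strand and that of RSAD2 (chr2:6865776-6865844, plus strand) 1, in capitals, and both are shown as the members with the largest rises.
IFIT1: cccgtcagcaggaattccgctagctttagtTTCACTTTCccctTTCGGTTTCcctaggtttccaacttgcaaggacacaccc
RSAD2: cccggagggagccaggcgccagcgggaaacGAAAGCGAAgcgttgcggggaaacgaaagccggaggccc

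B-cell surface antigens rose in 20 of 33 cases and fell in 3 (median 0.32, and 0.50 with GC offsets). MS4A1, which encodes CD20, the target of rituximab, rose from 117 ± 6.21 to 310.2 ± 13.6 CPM (mean ± SD, n = 3 each, log2 fold change 1.41, SE 0.08, adjusted p = 2.5e-07). CD40, the receptor for T-cell help, rose from 47.6, 47.6 and 44.1 to 121, 112 and 115 CPM (log2 fold change 1.32, SE 0.09, adjusted p = 5.8e-07), and CD83, an activation antigen, from 53.4, 55.2 and 60.6 to 155, 135.3 and 141 (log2 fold change 1.35, SE 0.07, adjusted p = 1.3e-07). CD69, an early activation antigen, rose from 63.4, 60.1 and 60.9 to 113, 132.6 and 128 CPM (log2 fold change 1.02, SE 0.08, adjusted p = 2.0e-06). None of them overlapped.

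FCRL3 and CD38 had the 2 largest log2 rises of the antigens. FCRL3, an Fc receptor-like protein, went from 0.292, 2.01 and 0.817 to 14.2, 14.3 and 11.3 CPM (log2 fold change 3.65, SE 0.47, adjusted p = 7.2e-05), and CD38, an ectoenzyme used to grade CLL, from 1.41, 1.65 and 1.94 to 10.0, 9.62 and 11.7 (log2 fold change 2.65, SE 0.14, adjusted p = 1.4e-07). FCRL5 fell from 2.29, 1.81 and 2.17 to 0.56, 0.738 and 0.674 CPM (log2 fold change -1.67, SE 0.22, adjusted p = 7.7e-05). CD5, a defining antigen of CLL, was below 1 CPM in all 6 libraries and did not pass. CD52 did not pass either (log2 fold change 0.09, SE 0.11).

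Immunoglobulin constant genes rose in 9 of 11 cases, with 1 lower (median 0.81). IGKC, the kappa light chain, rose from 379.9, 348 and 358 to 1557, 1524 and 1674 CPM (log2 fold change 2.13, SE 0.09, adjusted p = 3.6e-08), and IGHM, the mu heavy chain, from 1017 to 1459 mean CPM (log2 fold change 0.52, SE 0.06, adjusted p = 4.6e-05). IGHD, which shares a primary transcript with IGHM, fell by 0.78 (SE 0.15). The IGHG and IGHA genes are near-identical copies, so their separate values are uncertain. JCHAIN, which joins polymeric antibody, rose from 402, 395 and 384 to 818, 756 and 891 CPM (log2 fold change 1.06, SE 0.12, adjusted p = 3.5e-05).

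The plasma-cell programme did not move as a unit. Of 15 genes 8 rose and 2 fell. PRDM1, its master repressor BLIMP1, fell from 14.2, 13.9 and 10.8 to 3.16, 3.57 and 3.96 CPM (log2 fold change -1.87, SE 0.30, adjusted p = 0.00035), while IRF4 was at 0.21 (SE 0.06), a call lost without MEC1_37, MEC1_39, MEC1_184 or MEC1_186, with log2 fold changes of 0.12 to 0.29 over the 15 alternatives that tested it (lost too with no filter or GC offsets), and SDC1 did not pass (log2 fold change -0.09, SE 0.08). Of 26 B-cell transcription factors 12 rose and 7 fell. BCL6, the germinal-centre repressor, fell from 11.6, 12.9 and 12.3 to 5.56, 7.26 and 5.16 CPM (log2 fold change -1.03, SE 0.14, adjusted p = 0.0001), and MEF2B from 14.8, 4.87 and 5.95 to 1.96, 0.738 and 0.696 (log2 fold change -2.90, SE 0.56, adjusted p = 0.0013). POU2AF1, the octamer coactivator, rose (log2 fold change 0.60, SE 0.08), as did TCF4 (log2 fold change 0.58, SE 0.09). FOXP1 was listed at 0.0973, 0 and 0 CPM with DMSO and 1.42, 1.29 and 1.65 with ibrutinib, and BACH2 stayed below 0.7 CPM, so neither fold is well determined.

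NF-kB genes went both ways, 9 higher and 7 lower of 28 (median 0.00). Subunits REL and RELA fell by 0.66 (SE 0.21) and 0.75 (SE 0.25). The REL call was lost without any 1 of the ibrutinib libraries, with log2 fold changes of -0.87 to -0.26 over the 15 alternatives that tested it (lost too with only the 2 groups fitted), and the RELA call without MEC1_38, MEC1_184 or MEC1_185, with log2 fold changes of -0.95 to -0.55 over the 15 alternatives that tested it (lost too with GC offsets). The feedback deubiquitinase TNFAIP3 fell from 149, 149 and 133.2 to 101.2, 98.4 and 106 CPM (log2 fold change -0.50, SE 0.07, adjusted p = 0.00011). NFKBIA, the inhibitor IκBα, rose from 80.0, 71.3 and 66 to 141, 134.01 and 137 CPM (log2 fold change 0.92, SE 0.07, adjusted p = 2.0e-06), and CFLAR, an inhibitor of death receptor signalling, from 45.4, 42 and 48.6 to 119, 128 and 120.3 (log2 fold change 1.44, SE 0.09, adjusted p = 5.6e-07). NFKB2 did not pass (log2 fold change -0.07, SE 0.07).

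Chemokines that activated B cells secrete were among the genes that fell. Of 28 tested ligands 9 fell and 5 rose. CCL3, a BCR-induced T-cell attractant used as a marker of ibrutinib action in patients, fell from 52.2, 43.9 and 49.8 to 30.1, 31.5 and 33.5 CPM (log2 fold change -0.62, SE 0.09, adjusted p = 0.00018), and CCL4 from 13.1, 14 and 11.6 to 8.42, 6.69 and 9.01 (log2 fold change -0.68, SE 0.14, adjusted p = 0.0017). CCL5 fell by 0.96 (SE 0.10), and CCL17, a ligand of CCR4, rose from 0.243, 0.11 and 0.225 to 1.68, 2.09 and 1.85 CPM (log2 fold change 3.27, SE 0.62, adjusted p = 0.0011). LTB, lymphotoxin beta, rose from 15.1, 12.6 and 22.1 to 72.2, 42.5 and 42.3 CPM (log2 fold change 1.66, SE 0.25, adjusted p = 0.00021). CCL3 and CCL4 have near-identical copies that share reads.

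Of the homing receptors, ITGAL, the alpha chain of LFA-1, fell from 68.7, 85.5 and 85.7 to 38.1, 26 and 26.3 CPM (log2 fold change -1.41, SE 0.15, adjusted p = 1.6e-05) and its beta chain ITGB2 by 0.80 (SE 0.06). The chemokine receptor CXCR4 did not pass, at 81.6, 89.1 and 83.7 and 84, 86.9 and 83.2 CPM (log2 fold change -0.00, SE 0.06, adjusted p = 0.98), and CCR7 did not pass (log2 fold change 0.30, SE 0.16, adjusted p = 0.15). In all, 5 of 22 rose and 8 fell. Of 20 JAK-STAT feedback and PIM genes 9 fell and 4 rose. SOCS3 fell from 1.95, 1.92 and 1.94 to 0, 0.238 and 0.131 CPM (log2 fold change -4.00, SE 0.64, adjusted p = 0.00035) and the kinase PIM3 from 154, 142.5 and 169 to 68.3, 57.9 and 59.8 (log2 fold change -1.32, SE 0.08, adjusted p = 5.1e-07), while STAT6 rose (log2 fold change 0.85, SE 0.07).

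The main survival genes did not pass. BCL2 was at 487, 515 and 495 CPM with DMSO and 491, 506 and 489 with ibrutinib (log2 fold change -0.01, SE 0.06, adjusted p = 0.9), and MCL1 at 242, 242 and 228 and 238.6, 198 and 279 (log2 fold change 0.01, SE 0.12, adjusted p = 0.97). With GC offsets BCL2 passed as lower, at -0.17. BCL2A1, an NF-kB-driven relative, rose from 27, 27.9 and 28.5 to 55.6, 57.3 and 57.2 CPM (log2 fold change 1.03, SE 0.08, adjusted p = 1.4e-06), and the BH3-only death gene BBC3 fell from 15.3, 15.9 and 14 to 5.26, 5.02 and 4.94 (log2 fold change -1.57, SE 0.10, adjusted p = 3.7e-07). BCL2L11 did not pass (log2 fold change 0.16, SE 0.51). In all 5 of 16 family members rose and 5 fell. The number that rose was 3 without MEC1_37, MEC1_38 or MEC1_186, with no filter or with only the 2 groups fitted, and 2 without MEC1_184.

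In antigen presentation, CIITA, the switch of MHC class II, rose from 77.5, 86 and 82.7 to 121, 136 and 120.4 CPM (log2 fold change 0.61, SE 0.07, adjusted p = 4.1e-05), yet 6 of 13 class II genes fell and 5 rose, with HLA-DRB1 at -0.47 (SE 0.05) and HLA-DRA at 0.23 (SE 0.07). The HLA-DRA call was lost without MEC1_39, with log2 fold changes of 0.14 to 0.31 over the 15 alternatives that tested it (lost too with no filter or GC offsets). Of 17 class I and peptide loading genes 6 rose and 3 fell. B2M rose (log2 fold change 0.48, SE 0.07) and HLA-E fell (log2 fold change -0.68, SE 0.05). HLA genes share reads and differ between people, so these values are uncertain.

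Ribosome biogenesis genes rose in 19 of 40 cases and fell in 8 (median 0.23), with the box C/D protein NOP56 at 0.57 (SE 0.09) among the former and nucleolin, NCL, at -0.51 (SE 0.10) among the latter. Of 79 cytosolic ribosomal protein genes 17 rose and 9 fell, a balance that depended on the setting. With library sizes alone 35 rose and 5 fell, with a stricter filter 31 and 3, without MEC1_37 15 and 3, without MEC1_38 11 and 12, without MEC1_184 18 and 5, without MEC1_185 10 and 5, and without MEC1_186 14 and 5. Proteasome genes rose in 15 of 31 cases, led by the core alpha subunits PSMA4 (log2 fold change 0.88, SE 0.13), PSMA5 (log2 fold change 0.88, SE 0.09) and PSMA3 (log2 fold change 0.88, SE 0.12), and 1 fell. Nuclear respiratory chain genes rose in 21 of 73 cases and fell in 7 (12 with GC offsets), among the latter SDHA (log2 fold change -0.99, SE 0.06). Mitochondrially encoded subunits rose in 10 of 13 and 0 fell by edgeR, DESeq2 or limma-voom, nor did any at an unadjusted p under 0.05 (median 0.79), with MT-CYB, cytochrome b, at 226, 317 and 200.4 against 554, 511 and 440.2 CPM (log2 fold change 1.02, SE 0.16, adjusted p = 0.00037). The mitochondrial share of counts given above includes the genes of this list, so it is not a separate measure of the rise.

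Genes of drug efflux and glucuronidation were included because the study follows UGT2B17, which conjugates steroids and drugs to glucuronic acid. UGT2B17 rose from 17.1, 16.6 and 17.4 to 36.6, 37.8 and 39.5 CPM, 2.23-fold (log2 fold change 1.15, SE 0.08, adjusted p = 8.5e-07), without overlap. Its relative UGT2B15 had a mean of 3.52 CPM with DMSO and 8.96 with ibrutinib (log2 fold change 1.34, SE 0.29, adjusted p = 0.003), and the 2 genes are close copies that may share reads. The exporters ABCC10 (log2 fold change 1.08, SE 0.12) and ABCC4 (log2 fold change 0.62, SE 0.05) rose, and ABCB1, the multidrug exporter, fell (log2 fold change -0.78, SE 0.14). In all, 5 of 15 tested members rose and 2 fell.

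MYC could not be placed. Its CPM was 211, 11.2 and 169.5 with DMSO and spanned 92.3 to 208 with ibrutinib, so a DMSO library stood far below its group, and the SE of 0.94 left any change undetermined (log2 fold change 0.31, SE 0.94, adjusted p = 0.81). Without that library, MEC1_38, the log2 fold change was -0.23. A like spread, with a library of a group apart from the other 2, was seen for RRM2, TSC22D3 (78.9, 214 and 211 CPM with DMSO), MXI1 (42.8, 92.6 and 38) and ATF3.

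Among single genes averaging 3 or more on the log2 CPM scale, MIR155HG, the host transcript of miR-155, a B-cell oncogenic miRNA, was among the 12 largest rises. It rose from 24.7, 25.2 and 25.1 to 209, 221 and 217 CPM, 8.63-fold (log2 fold change 3.11, SE 0.10, adjusted p = 7.6e-09). The counts are of the host transcript and not of the mature miRNA. The mature miR-155-5p is encoded at chr21:25573983-25574006 on the plus strand of GRCh38.p14 and is printed from RefSeq with its seed, bases 2 to 8, in capitals, since it is what the host transcript carries.
miR-155-5p: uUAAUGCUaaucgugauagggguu

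The other large rises of this size class were of mixed function. MAT2A, which makes S-adenosylmethionine, rose from 26, 27.3 and 35.6 to 186.3, 165 and 173 CPM (log2 fold change 2.56, SE 0.21, adjusted p = 2.7e-06). ABCA6, a lipid transporter, rose from 2.48, 1.45 and 2.76 to 22.1, 21.3 and 21.1 CPM (log2 fold change 3.27, SE 0.18, adjusted p = 2.1e-07), and SGK1, a kinase downstream of PI3K, from 1.48, 1.1 and 1.27 to 5.32, 8.21 and 9.18 (log2 fold change 2.56, SE 0.20, adjusted p = 2.1e-06). CFAP54 (log2 fold change 3.001, SE 0.16), SYT17 (log2 fold change 2.94, SE 0.22) and the noncoding LINC02245 (log2 fold change 2.94, SE 0.34), LINC01087 (log2 fold change 2.84, SE 0.34) and TAPT1-AS1 (log2 fold change 2.91, SE 0.29) completed the 12 with MIR155HG, FCRL3, IFIT1 and RSAD2. Strand is not given for the counting, so TAPT1-AS1 cannot be told from reads of TAPT1.

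The largest falls of the same class were led by CDH17, a cadherin, from 67.5, 64.6 and 65.6 to 3.38, 3.59 and 4.09 CPM (log2 fold change -4.16, SE 0.12, adjusted p = 7.6e-09). GEM, a small GTPase induced by mitogens, fell from 37.3, 38.7 and 32.7 to 2.2, 2.59 and 2.57 CPM (log2 fold change -3.89, SE 0.11, adjusted p = 7.6e-09), and GAB2, a scaffold that recruits PI3K, from 18.6, 16.8 and 16.5 to 2.04, 2.52 and 1.65 (log2 fold change -3.06, SE 0.15, adjusted p = 7.2e-08). ASS1, argininosuccinate synthase of arginine synthesis, fell from 25.2, 25.6 and 23.8 to 2.52, 2.74 and 2.24 CPM (log2 fold change -3.31, SE 0.19, adjusted p = 2.6e-07), INHBE, an activin subunit, from 27, 29.4 and 27.3 to 2.82, 2.07 and 2.65 (log2 fold change -3.47, SE 0.15, adjusted p = 3.6e-08), and ADGRG5 from 10.51, 12.6 and 10.6 to 1, 0.952 and 0.566 (log2 fold change -3.74, SE 0.26, adjusted p = 8.1e-07). DUSP4 and EGR2 also belong to these 12.

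The remaining 4 of the 12 were the entries MIR3648-1, MIR3648-2, MIR3687-1 and MIR3687-2, which are known to lie in ribosomal DNA spacers and are near-identical copies that share reads. MIR3648-1 was at 1766, 1376 and 1914 CPM with DMSO and 102, 126 and 102 with ibrutinib (log2 fold change -3.94, SE 0.16, adjusted p = 3.5e-08), and the log2 fold changes of the others were -3.95 to -4.02. The 3 idelalisib libraries held 152, 141 and 138 CPM of MIR3648-1, near the ibrutinib libraries. The small-RNA entries cannot be read as mature miRNAs in these libraries.

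**Figure D3:**
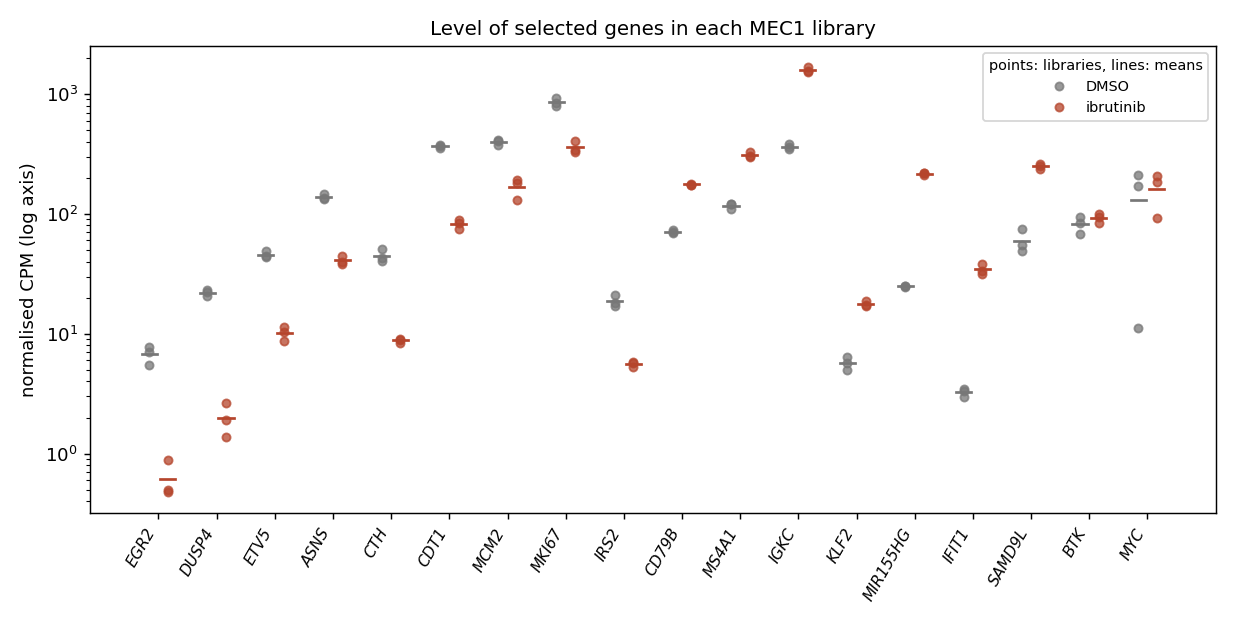
Normalised CPM of 18 genes in each of the 6 libraries on a log axis, DMSO in grey and ibrutinib in red, with a point for each library and a line at each group mean. EGR2, DUSP4, ASNS and CDT1 are lower with ibrutinib and CD79B, IGKC, MIR155HG and IFIT1 higher without overlap, BTK overlaps, and MYC has a DMSO library at 11.2 CPM.

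The ibrutinib effect in MEC1 was then set against that in JVM2 and EHEB by testing the interaction of line and treatment for 24 panel genes within a fit of all genes. The difference between MEC1 and JVM2 passed in 25.9% of 18851 genes and that between MEC1 and EHEB in 26.4%. The lines were exposed for 48, 72 and 96 h, so line and time cannot be told apart. For BTK the differences were 0.02 (SE 0.16, adjusted p = 1) and 0.06 (SE 0.16, adjusted p = 0.87), and neither passed. The BCR chain CD79B rose in MEC1 alone among the 3 lines, at 1.31 (SE 0.10) in MEC1, -0.14 (SE 0.07) in JVM2 and -0.17 (SE 0.09) in EHEB, and MEC1 exceeded them by 1.42 (SE 0.09, adjusted p = 6.0e-08) and 1.48 (SE 0.09, adjusted p = 2.7e-08). CD69 rose in MEC1 and fell in both other lines, at -1.34 (SE 0.06) and -1.01 (SE 0.10), differences of 2.34 (SE 0.11, adjusted p = 3.8e-09) and 2.02 (SE 0.11, adjusted p = 1.2e-08).

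Metabolic and cycle genes also set MEC1 apart. ASNS did not pass in JVM2 (log2 fold change -0.08, SE 0.09) or EHEB (log2 fold change -0.16, SE 0.10), and the MEC1 effect differed from theirs by -1.70 (SE 0.12, adjusted p = 2.0e-07) and -1.60 (SE 0.12, adjusted p = 2.5e-07). FASN differed by -1.25 (SE 0.13, adjusted p = 6.3e-06) and -0.82 (SE 0.13, adjusted p = 0.00028). MCM5 fell in MEC1, rose in JVM2 (log2 fold change 0.66, SE 0.06) and did not pass in EHEB (log2 fold change 0.18, SE 0.07), whereas CDK1 fell in all 3 lines and further in JVM2 (log2 fold change -1.09, SE 0.07) than in MEC1, a difference of 0.42 (SE 0.07, adjusted p = 0.00052). PRDM1 differed by -1.90 (SE 0.15, adjusted p = 3.2e-07) and -1.59 (SE 0.14, adjusted p = 1.4e-06).

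EGR1 fell in all 3 lines, at -1.90 (SE 0.14) in JVM2 and -1.17 (SE 0.11) in EHEB, and further in MEC1, with differences of -2.00 (SE 0.61, adjusted p = 0.025) and -2.71 (SE 0.60, adjusted p = 0.0034). The former was lost without JVM2_85, at -1.94, and with only the 2 lines fitted, at -2.00 (adjusted p = 0.071). CCL3 and CCL4 fell in EHEB as well, at -2.06 (SE 0.06) and -2.75 (SE 0.14) on the log2 scale, and the MEC1 effects were smaller by 1.43 (SE 0.10, adjusted p = 1.1e-07) and 2.06 (SE 0.18, adjusted p = 1.1e-06). In JVM2 CCL3 also fell, at -0.56 (SE 0.04), and the MEC1 difference of -0.09 (SE 0.10, adjusted p = 0.62) did not pass. CCL4 did not pass in JVM2 (log2 fold change -0.19, SE 0.07, adjusted p = 0.059). TXNIP fell in all 3 lines, at -0.94 (SE 0.08), -1.06 (SE 0.10) and -0.99 (SE 0.09), and the MEC1 differences of 0.10 (SE 0.10, adjusted p = 0.55) and 0.04 (SE 0.10, adjusted p = 0.86) did not pass. IRS2 fell in MEC1 and JVM2 and rose in EHEB (log2 fold change 0.43, SE 0.08).

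**Figure D4:**
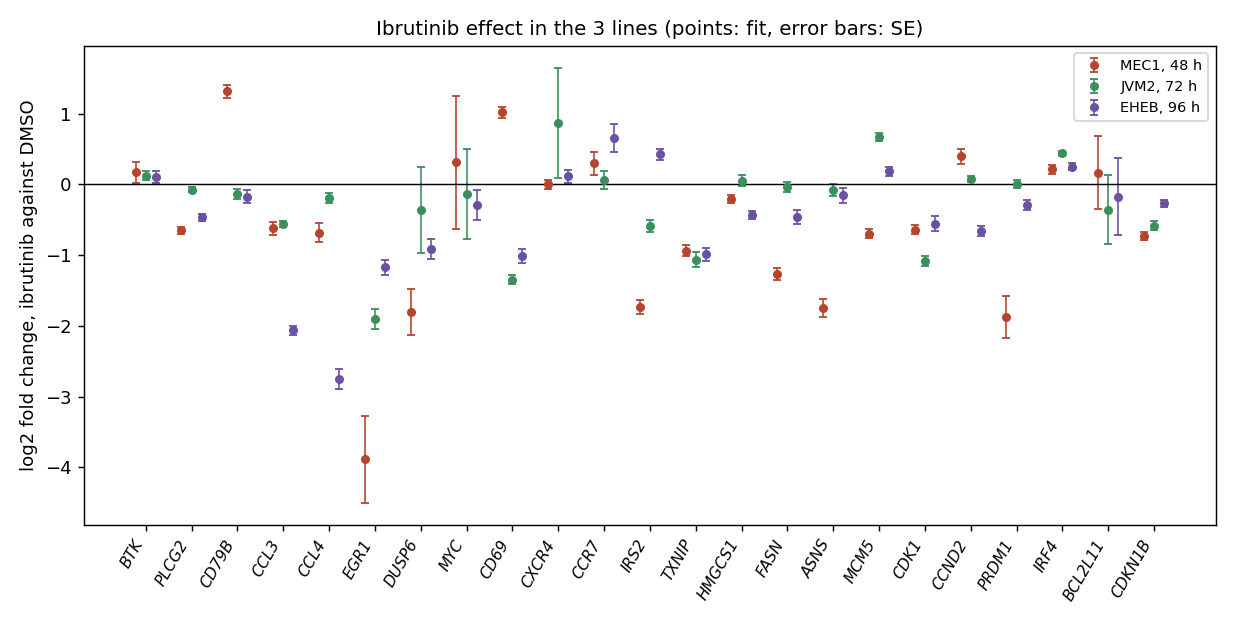
Log2 fold change of ibrutinib against DMSO for 23 of the 24 panel genes in MEC1 (48 h), JVM2 (72 h) and EHEB (96 h), with points for the fit of each line and bars for the SE derived from its test. CD79B and CD69 are above 1 in MEC1 and below 0 in the other lines, EGR1 is below -1 in all, and TXNIP lies near -1 in each.

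Within MEC1 the ibrutinib libraries were also set directly against the idelalisib libraries, which carry neighbouring numbers, a contrast added after the data were seen. It passed in 15.4% of genes, with 1641 higher and 1053 lower in ibrutinib. EGR1 was lower with ibrutinib, at -2.07 (SE 0.61, adjusted p = 0.041) on the log2 scale, and CD69 at -1.13 (SE 0.08, adjusted p = 0.00032). FASN was higher with ibrutinib (log2 fold change 0.54, SE 0.08, adjusted p = 0.0025), as was PLCG2 (log2 fold change 0.19, SE 0.05, adjusted p = 0.022). ASNS (log2 fold change 0.17, SE 0.12, adjusted p = 0.42), CDT1 (log2 fold change 0.11, SE 0.07, adjusted p = 0.31), IFIT1 (log2 fold change -0.23, SE 0.13, adjusted p = 0.29) and IGKC (log2 fold change -0.16, SE 0.09, adjusted p = 0.29) did not pass. The lists named above with the lowest medians against DMSO differed little from idelalisib. Their medians were 0.13 for the amino acid response, 0.11 for early response factors, -0.05 for ERK feedback, 0.17 for DNA replication and -0.10 for PI3K feedback. Of those with the highest, interferon-stimulated genes were at 0.05, immunoglobulin constant genes at -0.05 and mitochondrially encoded subunits at -0.43. Cytosolic ribosomal proteins were lower with ibrutinib in 64 of 79 cases and aminoacyl-tRNA synthetases higher in 13 of 20. The libraries also differed in composition, since the 10 most abundant genes took 14.4 to 17.0% of counts with ibrutinib and 21.2 to 23.9% with idelalisib. RN7SL1, the RNA of the signal recognition particle, was at 36272 to 44959 CPM with ibrutinib and 62459 to 72547 with idelalisib, and RN7SK, a small nuclear RNA, at 35413 to 41617 and 56694 to 72494. Their part in the shift of these lists was not tested.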

How the data were processed

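Total RNA depleted of ribosomal RNA was sequenced by the authors. The submitters' processing notes name Trimmomatic, HISAT2 2.1, StringTie 1.3.4, edgeR 3.22.5 and the build hg38. The deposited values are estimated counts per gene, already whole numbers in the file. For read length, strand and annotation release the sources give no value. The members and gene lists were chosen with earlier results of these data known.

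Genes were tested with edgeR 4.0.16 in R 4.3.3 (quasi-likelihood test, TMM scaling, filterByExpr) over the 12 MEC1 libraries, with Benjamini-Hochberg adjustment over 17516 genes and a threshold of 0.05. The interaction used 18 DMSO and ibrutinib libraries of 3 lines. CPM are scaled by TMM. The SE given with edgeR values was derived from the test, as the absolute log2 fold change divided by the square root of its F statistic. It is approximate, most of all for genes near 0 CPM. Alternatives used limma 3.58.1, DESeq2 1.42.0, other scalings and filters, and each library left out. GC offsets and the contrast with idelalisib were added after the data were seen. Some of the motifs were chosen after the data were seen. Motifs searched but not described above gave mixed medians with and without a match. These were 0.12 and -0.35 for the lysosomal CLEAR element and 0.29 and 0.38 for the E-box of ribosome biogenesis genes. In mitosis genes they were -0.34 and -0.4 for the cell cycle homology region and -0.41 and -0.37 for the NF-Y box. The NF-Y box gave -0.06 and -0.25 in cholesterol genes, and the forkhead site -0.94 and -0.34 in PI3K feedback genes. The sterol element and octamer each matched 1 member. On simulated data for this contrast, 200 of 17516 genes were changed by 1.5 on the log2 scale and the others left unchanged. Of the 200, 146 (73%) were recovered, with 8 false calls. In the data 47.6% of genes were called, so these rates need not hold there. Named are the 12 largest rises and falls with average log2 CPM of at least 3 and no overlap, core members, up to 4 called members per list and the panel. Other list members were named after their values were seen. Lists are described by counts and medians, with no test. Statements on overlap describe the printed CPM and are no test, and the share of all genes without overlap is not given. Figures used Python 3.11.15, pandas 2.3.3 and matplotlib 3.10.9. Some genes of these lists and of the panel are not reported here.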

Additional observations from a re-analysis of the deposited data

Results flagged for a closer look

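For 18 of the 24 panel genes the ibrutinib effect in MEC1 differed from that in JVM2, EHEB or both, by the edgeR test of the line by treatment interaction adjusted over 18851 genes. Values are MEC1 minus the other line on the log2 scale. Exposure time differs with line, so their parts cannot be told apart. In each line the drug also cannot be told apart from the set of library numbers.

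The effect was higher in MEC1 for CD79B (1.42 against JVM2, 1.48 against EHEB), CD69 (2.34 and 2.02) and CCND2 (0.29 and 1.05). It was also higher for CDK1 against JVM2 (0.42), and for CCL3 (1.43) and CCL4 (2.06) against EHEB. It was lower in MEC1 for EGR1 (-2.00 against JVM2, -2.71 against EHEB), IRS2 (-1.17 and -2.17), FASN (-1.25 and -0.82), ASNS (-1.70 and -1.60), MCM5 (-1.38 and -0.89) and PRDM1 (-1.90 and -1.59). Against JVM2 alone it was lower for PLCG2 (-0.60), DUSP6 (-1.44), CXCR4 (-0.85), HMGCS1 (-0.29) and IRF4 (-0.25), and against EHEB alone for CDKN1B (-0.47). In the JVM2 libraries DUSP6 was at 0.12 to 0.27 CPM and CXCR4 at 0.18 to 0.75 CPM. Both were near the floor there, so their effects in JVM2 are poorly determined.

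Some differences from JVM2 rested on single libraries or settings. Of 20 alternatives, those of CXCR4 and CCND2 did not pass in 14 each, IRF4 in 9, HMGCS1 and DUSP6 in 4 each, and EGR1 in 2. The CXCR4 difference was -0.58 without JVM2_233, EGR1 -1.94 without JVM2_85, DUSP6 -1.10 without JVM2_234, HMGCS1 -0.24 without JVM2_233, IRF4 -0.18 without MEC1_185 and CCND2 0.22 without MEC1_184.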

How the results depend on the processing

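The number of genes called was 8343 and lay between 6571 (a stricter filter) and 8804 (DESeq2) over the alternatives with all libraries, and between 7117 and 7765 with a library left out. None of these counts, in either direction, or of the counts for the differences between lines moved by over 1.5 times. Of 265 named genes 240 were called, 200 of them in each of 15 alternatives, 17 in each of the 13 or 14 alternatives that tested them and 23 not in at least 1, and 10 of the 25 genes not called passed in at least 1. NFKB2 went from -0.07 to 0.20 with GC offsets and passed there (adjusted p = 0.011 in edgeR), and the cause was not tested. The median log2 fold change changed sign in some alternative for 6 of 44 lists, among them those of NF-kB, heat shock, nucleotide synthesis, MHC class II and snoRNA hosts. Of the other genes given as not passing, BLNK, PIK3CD, KLF10, OAS2, CXCL10, CXCL9, IER3, INSIG1, IRF9 and STAT2 passed in 1 to 5 alternatives each. The number of genes that fell moved by over 1.5 times with a stricter filter for early response factors (15 to 8) and ERK feedback (10 to 6), with fewer members tested, and the number of autophagy genes that rose went from 5 to 3 with GC offsets. Nucleotide synthesis genes went from 7 higher and 5 lower to 5 and 6 without MEC1_38. No paired analysis was possible because the DMSO and ibrutinib libraries share no replicate number. Genes at or near 0 CPM in a group, such as CXCL11, FOXP1 and SOCS3, have folds that depth leaves undetermined.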

Other observations

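Cytosolic heat shock proteins divided by member, with 4 of 15 tested genes higher and 7 lower. The constitutive chaperone HSPA8 (log2 fold change 0.88, SE 0.11) and its partner DNAJA1 (log2 fold change 0.98, SE 0.10) rose. The inducible HSPA1A (log2 fold change -1.29, SE 0.12), the cochaperone BAG3 (log2 fold change -1.45, SE 0.14) and the small heat shock protein HSPB1 (log2 fold change -1.10, SE 0.10) fell. Of 20 NRF2 response genes 11 fell and 2 rose, and 7 fell with library sizes alone and 8 without MEC1_37, MEC1_39 or MEC1_185. NFE2L2, which encodes NRF2, fell (log2 fold change -1.15, SE 0.21), as did HMOX1, which degrades haem (log2 fold change -1.22, SE 0.10), and the ferritin chains FTL (log2 fold change -0.78, SE 0.06) and FTH1 (log2 fold change -0.49, SE 0.10). Of 17 hypoxia genes 8 fell, among them BHLHE40 (log2 fold change -1.77, SE 0.08), and 3 rose, including HIF1A (log2 fold change 0.26, SE 0.05), whose call was lost with GC offsets, at -0.03.

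Actin cytoskeleton genes also went both ways, 8 higher and 11 lower of 33. With library sizes alone the counts were 8 and 7, and the number higher was 5 without MEC1_38, with no filter or with GC offsets. ACTB (log2 fold change 0.62, SE 0.11) and the lymphoid GTPase RHOH (log2 fold change 0.91, SE 0.12) rose, and WASF2 (log2 fold change -1.33, SE 0.07), the myosin MYH9 (log2 fold change -0.98, SE 0.09) and FLNA (log2 fold change -0.88, SE 0.08) fell. Of 24 snoRNA host genes 4 rose and 6 fell. Among long noncoding genes 426 of 1228 were higher and 58 lower, against 3184 and 3971 of 13731 protein-coding genes, in a fit where genes of low expression leaned higher. Of those with an average log2 CPM of 3 or more, 105 of 187 long noncoding genes were higher and 24 lower, against 2264 and 3394 of 9601 protein-coding genes. The kinesin genes, grouped by their KIF symbols, had 4 higher and 21 lower of 34, with a median log2 fold change of -0.45.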
